A study of Homo sapiens with 26 samples.

Results

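The 43 genes described here encode proteins that prepare, start and carry out DNA replication in S phase. They were chosen by name and not by a measured change, although earlier results of these data were known at that point. All 43 were found by symbol among the 58039 genes of the count table, and all 43 had enough counts to be among the 17198 genes tested. By role, 11 act in origin licensing (MCM2 to MCM7, CDC6, CDT1, GMNN, ORC1, ORC6) and 6 in activation of the replicative helicase (CDC45, MCM10, GINS1 to GINS4). The primase and polymerase group has 8 (POLA1, POLA2, PRIM1, PRIM2, POLD1, POLD3, POLE, POLE2), the sliding clamp and its loader 5 (PCNA, RFC2 to RFC5) and single-strand binding 3 (RPA1 to RPA3). Deoxynucleotide supply has 4 (RRM1, RRM2, TYMS, TK1), chromatin assembly and histone mRNA 3 (CHAF1A, CHAF1B, SLBP) and flap removal and ligation 2 (FEN1, LIG1), and the S-phase phosphatase CDC25A stands alone.

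Replication origins are licensed in G1 when the origin recognition complex, CDC6 and CDT1 load the ring of MCM2 to MCM7, while geminin (GMNN) holds CDT1 back later in the cycle. In S phase CDC45 and the GINS complex join the ring to form the active helicase, DNA polymerase alpha with its primase lays down primers, and polymerases delta and epsilon extend them on the PCNA clamp. Many of these genes are transcribed at the G1 to S transition under E2F factors, which RB family proteins restrain.

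RNA was sequenced from 26 libraries of the human colorectal carcinoma line HCT116 in 9 groups. The Mediator complex carries either CDK8 or its paralog CDK19 as kinase. JQ1 occupies the bromodomains of BET proteins and so releases them from acetylated chromatin. The groups were unedited HCT116 as control (n = 3), control with JQ1 (n = 3), and CRISPR knockouts, by label, of CDK8 (CDK8KO), CDK19 (CDK19KO) or the pair together (DKO). Every knockout came as a C1 and a C2 subline with 3 libraries apiece, and DKO-C1 was also given JQ1 (n = 2). No treatment is named for the control and knockout libraries without JQ1, and neither the dose and time of JQ1 nor the edited sites are stated in what was used here. Each genotype rests on only its 2 sublines. The sample labels do not say whether a subline is 1 clone or whether replicates are separate cultures, so p-values measure only the spread between these libraries. Knockout column names carry CL numbers, read here as clone numbers. The 3 DKO-C2 columns were assigned by elimination, as their names carry a clone number that no sample title has.

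The promoters of these genes held E2F words more often than promoters at large. Searched were TTTGGCGC, TTTCCCGC, TTTGCCGC and TTTCGCGC on both strands, in the 250 bases before each RefSeq start (GRCh38.p14), where words on opposite strands can overlap. RefSeq windows were found for 37 of the 43 genes, and 14 of the 37 (37.8%) held at least 1 word, against 3.40% of the 27305 genes with a window. CCAAT, the box bound by NF-Y, was present on either strand in 22 of the 37 (59.5%), against 37.0% of all genes with a window. A match describes these letters and is not a mapped binding site. Shown here, because they come from genes whose values are given in every group or that fell in DKO, are the stretches around each word that touch no annotated exon in GENCODE v29. Capitals mark the E2F words. In MCM6 each run of capitals is a pair of overlapping words on opposite strands.
MCM6 (chr2:135876558-135876621, minus strand): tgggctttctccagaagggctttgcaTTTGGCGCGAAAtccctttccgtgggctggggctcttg
MCM6 (chr2:135876496-135876559, minus strand): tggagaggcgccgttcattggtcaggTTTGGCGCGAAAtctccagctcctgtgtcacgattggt
MCM3 (chr6:52284883-52284942, minus strand): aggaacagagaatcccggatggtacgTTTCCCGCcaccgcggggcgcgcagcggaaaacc
GMNN (chr6:24775307-24775366, plus strand): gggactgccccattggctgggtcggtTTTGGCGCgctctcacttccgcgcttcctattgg
PCNA (chr20:5126648-5126707, minus strand): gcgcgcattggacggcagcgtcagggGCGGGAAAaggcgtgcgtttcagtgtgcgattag
POLA1 (chrX:24693755-24693814, plus strand): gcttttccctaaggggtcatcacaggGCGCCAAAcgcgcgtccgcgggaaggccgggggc
CDC25A (chr3:48188428-48188487, minus strand): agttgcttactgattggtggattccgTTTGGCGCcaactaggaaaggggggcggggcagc

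Gene counts ran from 17700864 to 19093094 per library, and the 43 genes together took 0.588% to 0.765% of them. CDK8 was at 50.9 ± 1.12 CPM (library-scaled count after TMM factors; mean ± SD, n = 3) in control, 44.3 ± 0.726 and 46.3 ± 2.06 in CDK8KO-C1 and C2, and 37.8 ± 2.27 and 39.0 ± 1.26 in DKO-C1 and C2. CDK19 was at 27.2 ± 2.73 CPM in control, 18.9 ± 1.38 and 25.3 ± 1.54 in CDK19KO-C1 and C2, and 33.2 ± 1.54 and 38.5 ± 3.50 in DKO-C1 and C2, so CDK19 RNA was above control in the libraries labelled DKO. It was also above control in CDK8KO-C1 (32.9 ± 0.882), CDK8KO-C2 (35.7 ± 1.48) and control with JQ1 (36.2 ± 2.00). A gene count does not show a small edit, and genotypes below are those of the labels. The summed level of 6 epithelial markers was 3313 to 7043 CPM, although VIL1 and CDX1, which mark intestinal epithelium, did not pass the low-count filter. Leukocyte markers summed to at most 0.332 CPM, endothelial markers to at most 0.986 and fibroblast markers to 13.6 to 31.2.

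Every direction below is relative to the other genes of the same library. Scaling to the ERCC spike-in transcripts instead moved the median log2 fold change of all tested genes by -1.22 in CDK8KO, -1.65 in CDK19KO, -0.90 in DKO, -0.37 with JQ1 in control and -0.27 with JQ1 in DKO-C1. By the labels, spike-in was added to control and DKO, treated or not, while for CDK8KO and CDK19KO none is mentioned, although all libraries held spike-in counts. On that scale all 43 genes were called lower than control in each of the 3 knockout comparisons. The share of all tested genes called on that scale is not given here, so counts with spike-in scaling are not read as particular to these genes. Whether RNA per cell or the amount of spike-in differed cannot be told apart, nor, in bulk RNA, can fewer cells in S phase from less of these RNAs per cell.

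**Figure D1:**
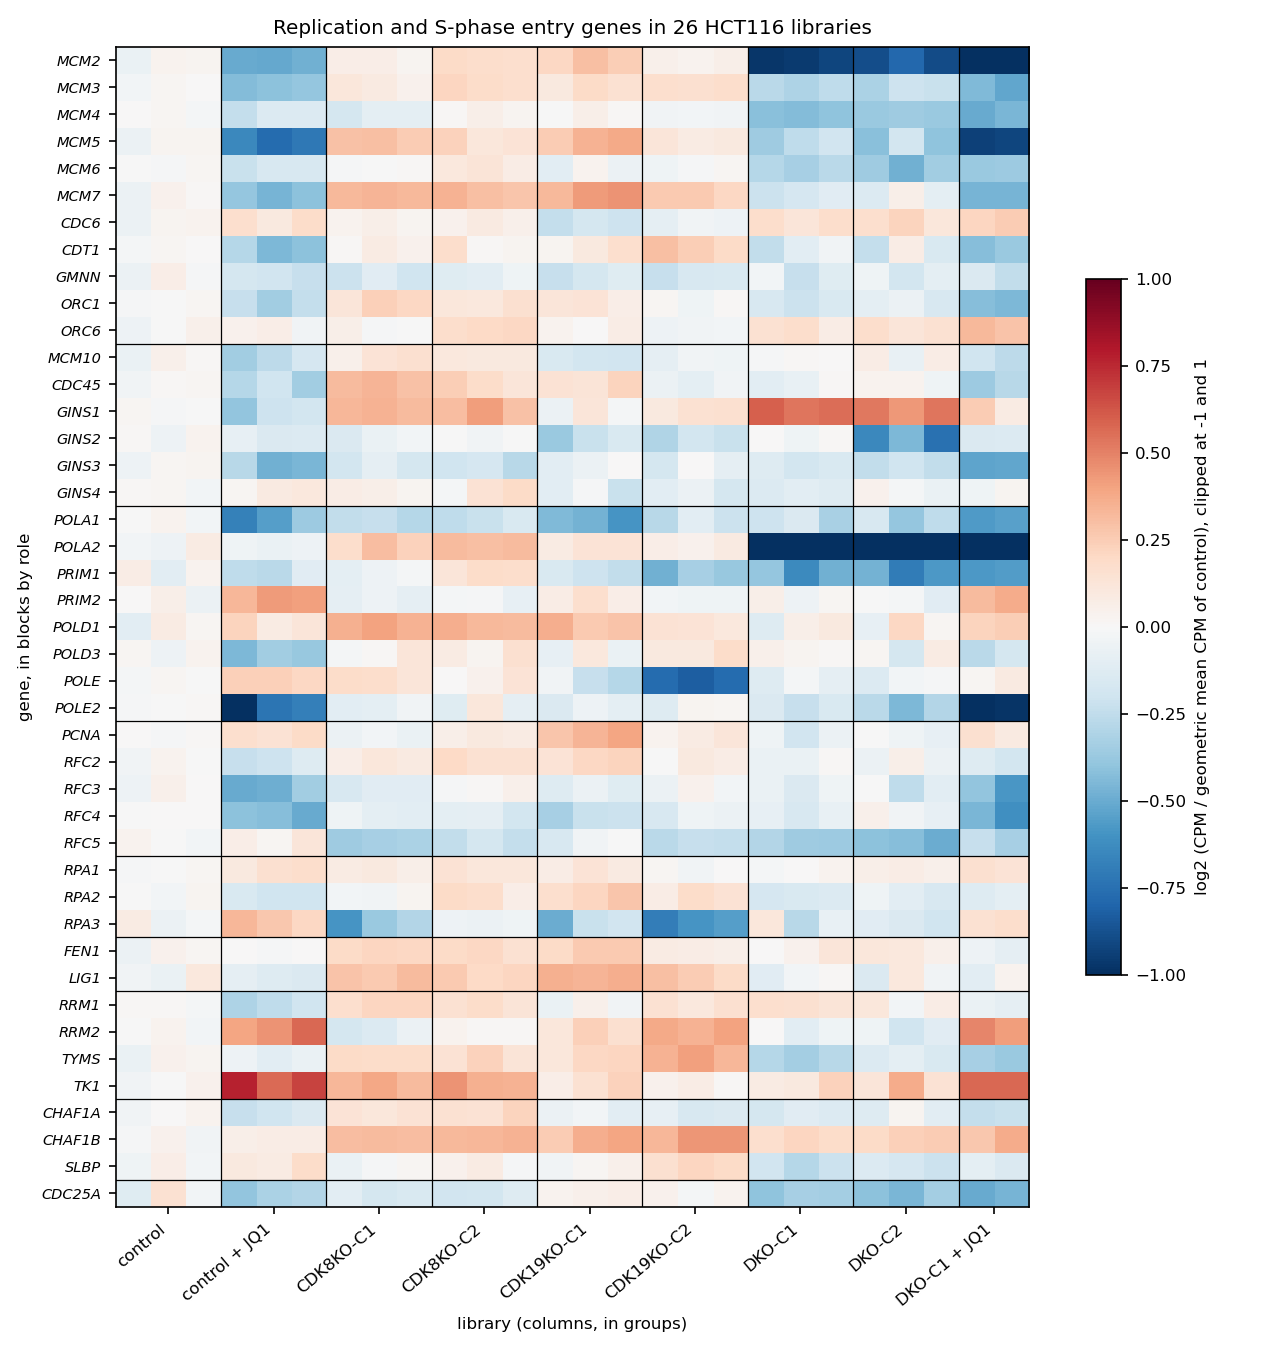
Each row is 1 of the 43 genes and each column 1 of the 26 libraries; color is log2 of CPM over the geometric mean of the control libraries, clipped at -1 and 1, relative to the other genes of each library. MCM2 and POLA2 are dark blue in all DKO libraries, while TK1, RRM2 and PRIM2 are red and POLE2 and MCM5 blue in both JQ1 groups.

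In CDK8KO, replication genes were more often higher than lower relative to the other genes, by small amounts, while all 43 were lower with spike-in scaling. Calls are those of edgeR's quasi-likelihood test, with p-values adjusted by Benjamini-Hochberg and a limit of 0.05. Against control, 20 of the 43 genes rose and 6 fell, where 40.5% of all tested genes were called, 19.5% higher and 21% lower. The median log2 fold change of the 43 was 0.08, against -0.02 over all tested genes. Counts by role were 5 higher and 1 lower of 11 licensing genes and 3 and 1 of 6 helicase activation genes. They were 3 and 1 of 8 primase and polymerase genes, and 3 and 0 of 4 deoxynucleotide genes. All 6 libraries lay above control for 17 genes and below it for 4, where 15.8% and 16% of all tested genes did so. With C1 alone 39.2% of all tested genes were called and with C2 alone 34%. In both sublines alone 14 of the 43 genes were higher and 4 lower. The share of all tested genes called alike in both sublines is not given here, so these counts are not read as particular to these genes.

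TK1, thymidine kinase, which salvages thymidine, was at 205, 209 and 216 CPM in control, at 264, 275 and 262 in CDK8KO-C1 and at 286, 269 and 267 in CDK8KO-C2. All 6 CDK8KO libraries lay above all 3 control libraries. TK1 rose by 0.36 ± 0.05 (log2 ± SE; adjusted p = 2.018e-07), or to 129% of control. Among the genes called in both sublines, the next largest rises were those of POLD1, the catalytic subunit of polymerase delta (0.35 ± 0.05), GINS1 of the GINS complex (0.34 ± 0.05) and CHAF1B of chromatin assembly factor CAF-1 (0.32 ± 0.04). RFC5, a clamp loader subunit, fell by 0.28 ± 0.04, POLA1, the catalytic subunit of polymerase alpha, by 0.23 ± 0.05, and GINS3 by 0.18 ± 0.05. CDC25A, the phosphatase that activates CDK2, fell by 0.16 ± 0.05 (adjusted p = 0.006111). Its control libraries spread from 59.0 to 71.4 CPM, and without control replicate 2, the highest, its change was -0.08 with an adjusted p of 0.2065.

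In CDK19KO rises and falls were nearer in number, while all 43 genes were lower with spike-in scaling. Of the 43 genes 15 rose and 11 fell, where 43% of all tested genes were called, 21% higher and 22% lower, and the median was 0.05 against -0.02. The licensing genes counted 5 higher and 2 lower of 11, while no helicase activation gene was called higher and 2 of 6 were lower. Among primase and polymerase genes 1 was higher and 3 were lower of 8. All 6 libraries lay above control for 13 genes and below it for 7, where 12% and 12.4% of all tested genes did so. C1 alone had 46.1% of all tested genes called and C2 alone 42.4%. In both, 7 of the 43 were higher (CHAF1B, LIG1, MCM3, MCM7, RPA2, RRM2, TYMS) and 6 lower (GINS2, GMNN, POLA1, POLE, PRIM1, RPA3). As for CDK8KO, the share of all tested genes called alike in both sublines is not given here.

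CHAF1B rose by 0.37 ± 0.04 (adjusted p = 3.526e-09), from 68.3 ± 1.77 CPM in control to 86.5 ± 4.28 in CDK19KO-C1 and 90.5 ± 3.95 in C2. MCM7, a helicase subunit, rose by 0.32 ± 0.04, LIG1, the ligase that seals Okazaki fragments, by 0.30 ± 0.05, and RRM2, the regulated subunit of ribonucleotide reductase, by 0.27 ± 0.04. The largest falls were those of POLE, the catalytic subunit of polymerase epsilon (-0.48 ± 0.04), RPA3, the smallest subunit of the single-strand binding protein (-0.46 ± 0.07), POLA1 (-0.35 ± 0.05) and PRIM1, the catalytic primase subunit (-0.30 ± 0.05). The value of POLE came mainly from 1 subline. It was at 255, 261 and 258 CPM in control, 251, 220.3 and 212 in CDK19KO-C1, and 151, 146 and 152 in CDK19KO-C2. Against control POLE changed by -0.18 ± 0.05 in C1 and by -0.79 ± 0.05 in C2.

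The tested genes beside POLE on chromosome 12 were low in the same subline. Of the 10 tested genes nearest to POLE in GENCODE v29, 5 on each side, 8 had a negative log2 fold change in CDK19KO-C2, and their median was -0.87, against 0.03 in CDK19KO-C1. In CDK19KO-C2, PGAM5 changed by -1.11 ± 0.06, GOLGA3 by -0.99 ± 0.06, PXMP2 by -0.95 ± 0.14, ANKLE2 by -0.79 ± 0.05 and FBRSL1 by -0.61 ± 0.07. In CDK19KO-C1, FBRSL1 changed by 0.47 ± 0.07, PGAM5 by 0.15 ± 0.05, PXMP2 by 0.02 ± 0.13, ANKLE2 by -0.06 ± 0.04 and GOLGA3 by -0.37 ± 0.06. The 5 neighbors were singled out after their values were seen, and the part of this region in the POLE result was not tested.

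**Figure D2:**
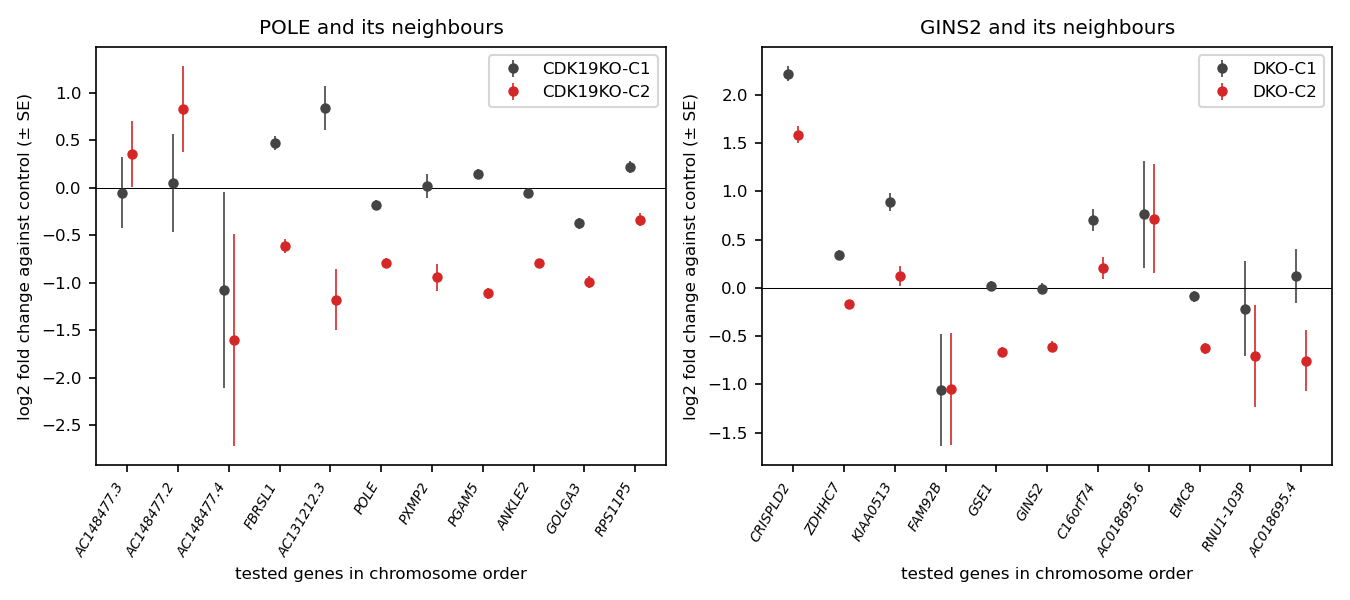
Log2 fold change against control ± SE of POLE (left, CDK19KO sublines) and GINS2 (right, DKO sublines) and the 5 tested genes on each side, in chromosome order. POLE and its named neighbors lie between -0.61 and -1.11 in CDK19KO-C2, and GINS2, GSE1 and EMC8 lie between -0.61 and -0.67 in DKO-C2.

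Compared directly, CDK8KO and CDK19KO differed in 28 of the 43 genes, 18 higher in CDK8KO and 10 lower, where 47.1% of all tested genes were called, 23.6% higher and 23.4% lower; with spike-in scaling 42 were higher in CDK8KO and 0 lower. All 6 helicase activation genes were called, 5 of them higher in CDK8KO, and 5 of the 8 primase and polymerase genes were higher and 1 lower. POLE was higher in CDK8KO by 0.59 ± 0.04, PRIM1 by 0.35 ± 0.05, TK1 by 0.27 ± 0.04 and GINS1 by 0.26 ± 0.04. RRM2 was lower in CDK8KO by log2 -0.33 ± 0.03, and PCNA (-0.19 ± 0.03), CDC25A (-0.19 ± 0.04) and RFC5 (-0.12 ± 0.03) also were. For PCNA and RFC5 this held for the means of the sublines but not between the C2 sublines, where PCNA differed by 0.0011 and RFC5 by 0.026. Between the C1 sublines PRIM1 differed by 0.15 (adjusted p = 0.0555). MCM2, MCM3, MCM4, MCM5 and MCM7 were not called in this comparison, and MCM6 differed by 0.08 ± 0.03.

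The libraries labelled DKO showed the opposite balance. Against control 6 of the 43 genes rose and 20 fell, where 61.6% of all tested genes were called, 29.5% higher and 32.1% lower, and the median was -0.10 against -0.02. All 6 DKO libraries lay below all control libraries for 16 genes and above them for 5, where 26.3% and 23.9% of all tested genes did so. Licensing had 2 genes higher and 8 lower of 11, and the primase and polymerase group 0 higher and 4 lower of 8. Of the 14 genes with an E2F word in their promoter, 0 were called higher and 9 lower, and of the 23 with a window and no word 6 were higher and 8 lower; the difference between these groups was not tested. In the other comparisons with control the counts were 6 and 3 with a word against 13 and 2 without in CDK8KO, 6 and 4 against 7 and 6 in CDK19KO, and 2 and 8 against 7 and 12 with JQ1, where both medians were -0.19. With C1 alone 55.9% of all tested genes were called and with C2 alone 58.9%. In both, 5 of the 43 were higher (CDC6, CHAF1B, GINS1, ORC6, TK1) and 14 lower. Here too the share of all tested genes called alike in both sublines is not given.

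Other measures differed in the same libraries. Mitochondrial genes took 6.90% to 8.24% of gene counts in control and 4.55% to 5.72% in DKO without JQ1. This share was also below control in CDK19KO-C1 (4.97% to 6.37%) and CDK19KO-C2 (5.77% to 6.29%), and was 7.42% to 8.62% in CDK8KO. The 5 fibroblast markers summed to 13.6 to 15.3 CPM in control, 24.4 to 29.2 in DKO-C1 and 23.4 to 31.2 in DKO-C2, nearly all of it COL1A1, while DCN and LUM were at 0 in these groups. DKO-C2 replicate b was far from replicates a and c (chi-square per degree of freedom 11.9 and 9.74, against 2.14 between a and c). Without replicate b, 6 of the 43 genes were again called higher and 20 lower. Large values were not limited to DKO-C2. Replicates 1 and 3 stood at 9.38 in control with JQ1 and at 7.32 in CDK19KO-C1. The part of mitochondrial RNA and COL1A1 in the DKO result was not tested.

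All of MCM2 to MCM7 fell in DKO relative to the other genes, with log2 fold changes from -0.90 to -0.11 and a highest adjusted p of 0.01613. MCM2 was at 322, 344 and 344 CPM in control, at 172, 173 and 179 in DKO-C1, and at 182, 195 and 181 in DKO-C2. No DKO library came near control, and MCM2 fell by 0.90 ± 0.04 (adjusted p = 3.691e-23), or to 53.5% of control. In the single knockouts MCM2 was at 343 to 385 CPM in the CDK8KO libraries and at 346 to 414 in the CDK19KO libraries, where it rose by 0.12 ± 0.04 and 0.15 ± 0.04. By subline it changed by 0.06 in CDK8KO-C1 and 0.18 in C2, and by 0.25 in CDK19KO-C1 and 0.05 in C2. In neither genotype was MCM2 called higher in both sublines alone. MCM4 fell in DKO by 0.39 ± 0.03, MCM6 by 0.34 ± 0.04, MCM5 by 0.30 ± 0.05 and MCM3 by 0.26 ± 0.03. MCM7 fell least, by 0.11 ± 0.04, and was called in DKO-C1 (-0.16) and not in DKO-C2 (-0.06, adjusted p = 0.296). In GENCODE v29, exons of TPRA1 and AC023593.1 on the opposite strand overlap 23.6% of the exonic bases of MCM2, and whether counting used strand is not known here.

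**Figure D3:**
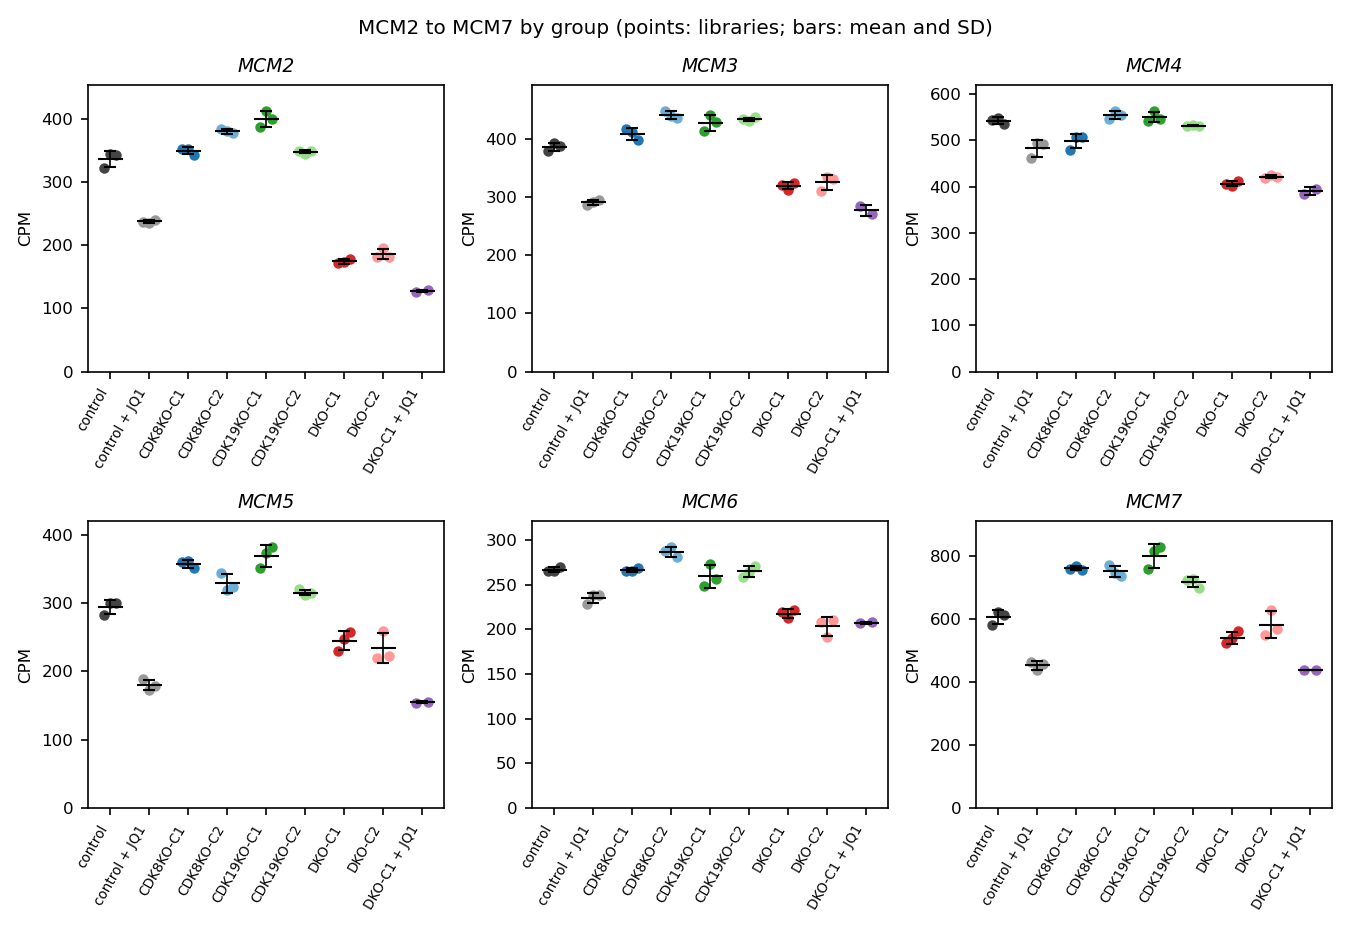
CPM of MCM2 to MCM7 in each library (points), with the mean and SD of each group (bars), scaled to the other genes of each library. MCM2 is at 175 and 186 in DKO-C1 and C2 and at 128 in DKO-C1 with JQ1, against 337 in control.

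POLA2, the regulatory subunit of polymerase alpha, had the largest change of the 43 genes in DKO. It was at 55.3, 54.4 and 59.8 CPM in control, at 7.19, 8.08 and 8.11 in DKO-C1, and at 9.64, 9.30 and 10.3 in DKO-C2. Its counts were 994 to 1118 in control and 136 to 198 in the DKO libraries without JQ1, so no group overlapped. POLA2 fell by 2.69 ± 0.05 (adjusted p = 2.901e-33), or to 15.4% of control, and ranked 1162 from the lowest log2 fold change among the 17198 tested genes. In CDK8KO POLA2 rose by 0.28 ± 0.04, and in CDK19KO it changed by 0.09 ± 0.04 without being called. JQ1 left it at 53.8 to 54.8 CPM in control cells and at 7.99 and 7.80 in DKO-C1.

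CDC42EP2, the next tested gene after POLA2 on the plus strand of chromosome 11, was nearly absent from the same libraries. It had 413 to 435 counts in control, 0 in each DKO-C1 library, 0, 2 and 4 in DKO-C2, and 1 and 1 in DKO-C1 with JQ1. Against a floor of 3 counts over the DKO-C1 group, it was at least 432-fold lower than the control mean of 22.9 ± 1.12 CPM (n = 3). DPF2, the gene after it, changed by -0.17 ± 0.05 in DKO-C1 and -0.14 ± 0.05 in DKO-C2, and CAPN1, on the other side of POLA2, rose by 0.30 ± 0.05 and 0.26 ± 0.05. POLA2 lies at chr11:65261762-65305589 (GENCODE v29), and 35.1% of its exonic bases overlap AP000944.2 on the same strand, which is not analysed here. CDC42EP2 was singled out after its values were seen, and its part in the POLA2 result was not tested.

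**Figure D4:**
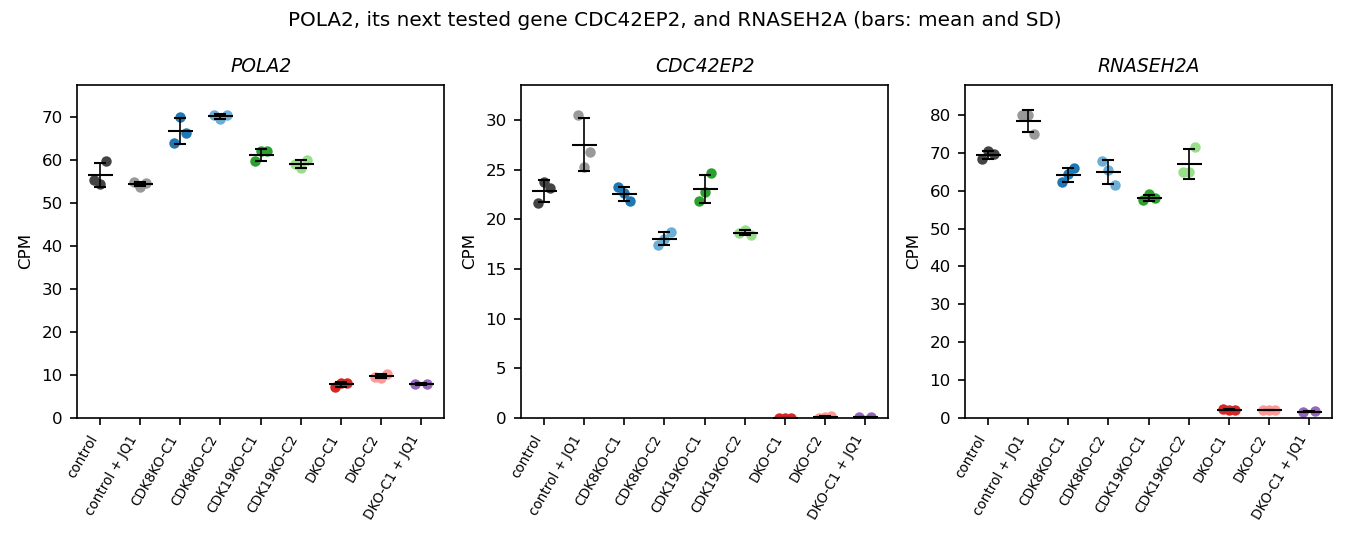
CPM of POLA2, its neighbor CDC42EP2 and RNASEH2A in each library (points) with group mean and SD (bars). POLA2 is below 11 CPM and RNASEH2A below 3 in every DKO library, and CDC42EP2 is at or near 0 there.

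PRIM1 fell in DKO by 0.54 ± 0.06, from 51.1 ± 3.31 CPM to 36.2 ± 3.15 in DKO-C1 and 34.1 ± 2.69 in DKO-C2; 16.2% of its exonic bases are overlapped on the same strand by other genes. POLA1 (-0.25 ± 0.05) and POLE2, the second subunit of polymerase epsilon (-0.26 ± 0.06), fell too. PRIM2, POLD1, POLD3 and POLE were not called, with changes from -0.07 to 0.03. Among the other roles CDC25A fell by 0.38 ± 0.05, RFC5 by 0.39 ± 0.04, TYMS, thymidylate synthase, by 0.21 ± 0.04, and SLBP, the histone stem-loop binding protein, by 0.20 ± 0.04. GINS1 went the other way, from 49.6, 48.5 and 48.9 CPM in control to 74.1, 71.1 and 72.0 in DKO-C1 and 70.7, 66.0 and 71.2 in DKO-C2. It rose by 0.53 ± 0.05 (adjusted p = 1.145e-11), with no overlap. CHAF1B rose by 0.21 ± 0.04, TK1 by 0.18 ± 0.05 and CDC6, the licensing ATPase, by 0.16 ± 0.04. PCNA (-0.07 ± 0.04), RRM2 (-0.08 ± 0.04) and CDT1 (-0.11 ± 0.05) were not called.

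The DKO change was compared with the sum of both single knockout changes on the log2 scale, which asks whether the joint loss gave more or less than the single losses added. 6 genes lay above the sum and 26 below it, where 59.2% of all tested genes were called, 29.3% higher and 29.8% lower. The median was -0.28 against 0.02. Below the sum were 8 of the 11 licensing genes, among them all of MCM2 to MCM7, all 4 deoxynucleotide genes, both flap and ligation genes and all 3 chromatin assembly and histone mRNA genes. POLA2 lay below it by log2 -3.06 ± 0.06, MCM2 by -1.17 ± 0.05 and MCM7 by -0.75 ± 0.05. RPA3 (0.57 ± 0.09), POLA1 (0.33 ± 0.07) and POLE (0.31 ± 0.06) lay above it. The value of POLE was -0.058 with the C1 sublines alone, and that of POLA1 0.14 (adjusted p = 0.195) with the C2 sublines alone. With spike-in scaling, which shifts this sum by 1.97 over all genes, MCM2 lay at 0.80 and MCM7 at 1.23, and 42 genes were called higher and 1 lower. Genotype and the labelled difference in spike-in use cannot be told apart here.

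JQ1 lowered most licensing and helicase activation genes of control cells and raised a smaller set. Against control, 10 of the 43 genes rose and 24 fell, where 56% of all tested genes were called, 27% higher and 29.1% lower, and the median was -0.18 against -0.02. Of 11 licensing genes 1 was higher and 9 lower, of 6 helicase activation genes 0 and 4, and of 5 clamp genes 1 and 3. In single-strand binding 2 of 3 were higher, in deoxynucleotide supply 2 of 4, and in the primase and polymerase group 3 were higher and 4 lower of 8. All 3 JQ1 libraries lay above control for 11 genes and below it for 26, where 28.8% and 31.1% of all tested genes did so. With spike-in scaling 0 were called higher and 29 lower.

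TK1 was at 205, 209 and 216 CPM in control and at 357, 311 and 335 with JQ1. It rose by 0.67 ± 0.06 (adjusted p = 1.238e-12), without overlap. RRM2 was at 360.1, 370.5 and 355 CPM in control and at 476, 493 and 539 with JQ1, and rose by 0.47 ± 0.05. PRIM2, the large primase subunit, rose by 0.39 ± 0.05 and RPA3 by 0.27 ± 0.08, relative to other genes; with spike-in scaling RPA3 changed by -0.09. The largest fall was that of POLE2, from 32.8, 33.1 and 33.4 CPM to 16.53, 19.97 and 20.55. It fell by 0.80 ± 0.08, or to 57.5% of control. MCM5 fell by 0.71 ± 0.05, POLA1 by 0.52 ± 0.06 and MCM2 by 0.50 ± 0.04, and all of MCM2 to MCM7 were called lower.

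In DKO-C1, JQ1 raised 10 and lowered 17 of the 43 genes, where 50.3% of all tested genes were called, 24.9% higher and 25.4% lower, and the median was -0.07 against -0.0048 over all genes. RRM2 rose by 0.50 ± 0.05, TK1 by 0.44 ± 0.06, PRIM2 by 0.33 ± 0.06 and RPA3 by 0.24 ± 0.09. The call of RPA3 was lost without DKO-C1 replicate 2 (0.14, adjusted p = 0.2028), without replicate 3 or without either JQ1 library. It was also lost with a replicate block (0.24), but that fit left out JQ1 replicate a, so 1 JQ1 library remained. POLE2 fell by 0.93 ± 0.09, MCM5 by 0.66 ± 0.06, MCM2 by 0.45 ± 0.05 and RFC4, a clamp loader subunit, by 0.43 ± 0.06. MCM2 reached 126 and 129 CPM in DKO-C1 with JQ1, below every library of the other 8 groups. POLE2 was at 13.95 and 16.79 CPM there, against 29.9, 28.2 and 29.7 in DKO-C1. JQ1 libraries did not overlap DKO-C1 for 14 genes above and 23 below, where 33.3% and 32.7% of all tested genes did so. With spike-in scaling 0 genes were called higher and 16 lower.

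The JQ1 responses of both genotypes, which share no library, followed each other gene by gene. Of the 43 genes 8 were called higher in both (PCNA, RPA1, RPA3, PRIM2, POLD1, POLE, RRM2, TK1), 16 lower in both, and 0 in opposite directions. The matching shares of all tested genes are not given here, so these counts are not read as particular to these genes. The fold changes had the same sign for 40 of 43 genes, and Pearson's r across the 43 genes was 0.946 and Spearman's rho 0.951, a description across genes that are not independent replicates. Over all 17198 tested genes, r was 0.739 and 79.6% had the same sign. A difference between the responses was called for 1 of the 43 genes, where 8.59% of all tested genes were called, 3.9% higher and 4.7% lower, and 5 had an unadjusted p under 0.05. It was MCM3, which fell by 0.41 ± 0.04 in control and by 0.20 ± 0.05 in DKO-C1, a difference of 0.21 ± 0.06 (adjusted p = 0.02783). MCM3 was at 379.5, 393 and 388 CPM in control, 286, 291 and 296 with JQ1, 322, 313 and 324 in DKO-C1, and 284 and 270.1 in DKO-C1 with JQ1. The MCM3 call was lost when control replicate 2 or 3, control with JQ1 replicate 1 or 2, DKO-C1 replicate 2 or DKO-C1 with JQ1 replicate 1 was left out, with adjusted p from 0.05 to 0.2399, and with only the libraries compared in the fit (0.15, adjusted p = 0.1764), where TK1 was called instead (-0.29, adjusted p = 0.007199). The Wald test of DESeq2 and a minimum of 5 CPM each called 2 genes, as did leaving out control replicate 1. The differences of all 43 genes lay between -0.23 and 0.22.

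**Figure D5:**
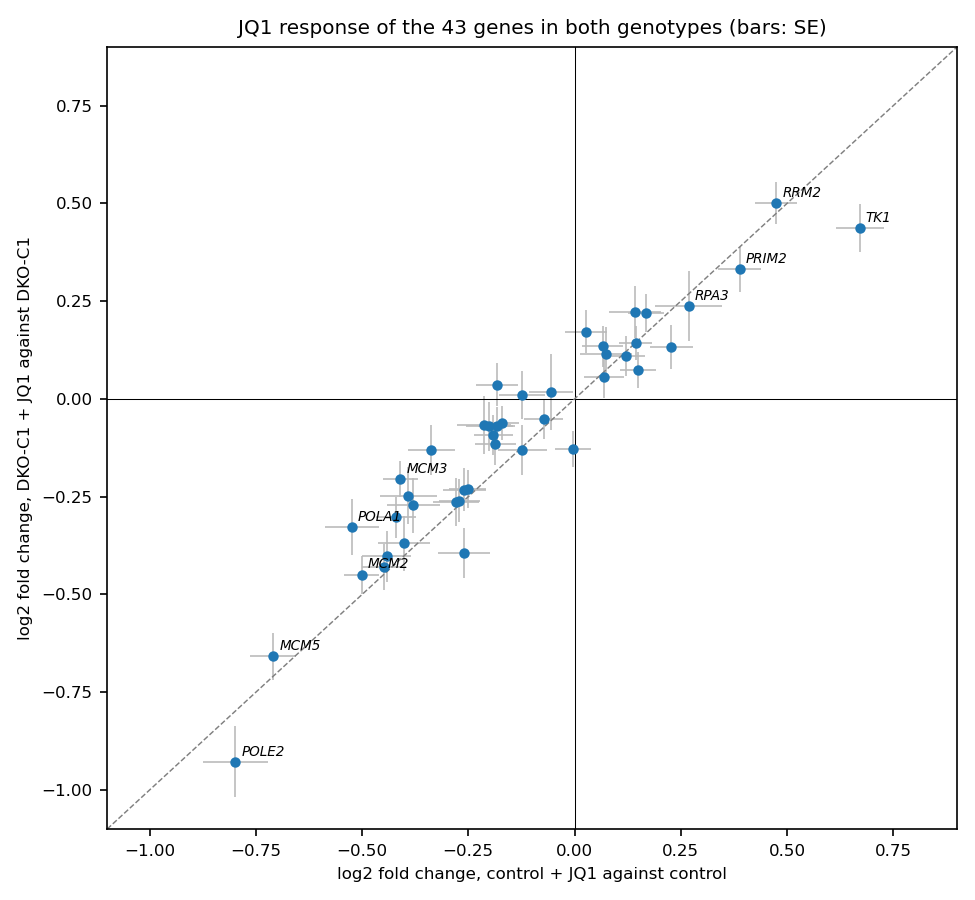
Each point is 1 of the 43 genes, with its log2 fold change by JQ1 in control (x axis) and in DKO-C1 (y axis) and SE bars; the dashed line marks equal changes. POLE2 and MCM5 lie lowest and TK1, RRM2 and PRIM2 highest on both axes, relative to the other genes of each library.

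The levels of 6 further genes are given across the 9 groups. CDC6 was at 184 ± 6.74 CPM in control, 204 ± 6.41 with JQ1, 189 ± 2.04 and 192 ± 3.79 in CDK8KO-C1 and C2, 159 ± 3.45 and 176 ± 3.50 in CDK19KO-C1 and C2, 205 ± 4.36 and 206 ± 7.73 in DKO-C1 and C2, and 216 ± 3.64 in DKO-C1 with JQ1. CDC6 was thus lowest in CDK19KO-C1, and the libraries of control with JQ1, DKO-C1 and DKO-C2 overlapped each other. CDT1, the licensing factor that brings the MCM ring to origins, was at 162 ± 1.92 CPM in control, 125 ± 7.60 with JQ1, 167 ± 4.05 and 171 ± 10.6 in CDK8KO, 174 ± 8.33 and 192 ± 7.47 in CDK19KO, 148 ± 10.9 and 151 ± 17.5 in DKO, and 123 ± 3.50 in DKO-C1 with JQ1. GMNN was highest in control, at 67.3 ± 2.95 CPM, and between 58.5 ± 0.985 and 63.3 ± 1.79 in the other 8 groups. It fell in CDK8KO (-0.13 ± 0.05), CDK19KO (-0.18 ± 0.05), DKO (-0.12 ± 0.05) and with JQ1 in control (-0.20 ± 0.06).

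PCNA was at 355 ± 2.36 CPM in control, 399 ± 7.29 with JQ1, 343 ± 4.44 and 375 ± 4.31 in CDK8KO-C1 and C2, 449 ± 18.5 and 375 ± 10.8 in CDK19KO-C1 and C2, 332 ± 18.5 and 344 ± 9.32 in DKO-C1 and C2, and 387 ± 14.1 in DKO-C1 with JQ1. Every CDK19KO-C1 library lay above every other library for PCNA. RRM2 was at 362 ± 7.96 CPM in control, 332 ± 13.7 and 367 ± 3.57 in CDK8KO, 407 ± 17.6 and 470 ± 9.43 in CDK19KO, 350.3 ± 13.95 and 333 ± 17.9 in DKO, and 503 ± 32.8 and 495 ± 18.8 in the JQ1 groups of control and DKO-C1. The RRM2 values of both JQ1 groups overlapped. CDC25A was at 64.5 ± 6.29 CPM in control, 51.0 ± 1.78 with JQ1, 58.1 ± 1.32 and 57.2 ± 1.43 in CDK8KO, 66.6 ± 0.625 and 65.2 ± 1.41 in CDK19KO, 50.2 ± 1.36 and 48.6 ± 2.02 in DKO, and 45.9 ± 0.862 in DKO-C1 with JQ1. Control and both CDK19KO sublines did not separate for CDC25A.

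Sublines of the same label differed for some of these genes. CDK8KO-C1 was lower than C2 for 9 of the 43 genes and higher for 0, where 21.1% of all tested genes were called, 11.5% higher and 9.63% lower, among them RPA3 (-0.36 ± 0.08), PRIM1 (-0.22 ± 0.06) and ORC6 (-0.18 ± 0.05). Without CDK8KO-C1 replicate 1, 3 were called, without its replicate 2, 5, and without CDK8KO-C2 replicate 2, 4. PRIM1 was not called without CDK8KO-C1 replicate 1 (-0.19, adjusted p = 0.05634), and ORC6 was not called without the low-count filter (adjusted p = 0.06118). With spike-in scaling RPA3, PRIM1 and ORC6 were not called (adjusted p = 0.3869, 0.765 and 0.8687). CDK19KO-C1 was higher than C2 for 15 and lower for 9, where 48% of all tested genes were called, 23.8% higher and 24.2% lower; with spike-in scaling 1 was higher and 8 lower. POLE (0.61 ± 0.05), RPA3 (0.31 ± 0.09) and PCNA (0.26 ± 0.04) were highest, and POLA1 (-0.30 ± 0.06), RRM2 (-0.21 ± 0.05) and TYMS (-0.18 ± 0.04) lowest. With spike-in scaling PCNA differed by 0.03 (adjusted p = 0.9041) and RPA3 by 0.08 (adjusted p = 0.7613). DKO-C1 and C2 differed for 3 genes, where 9.42% of all tested genes were called, 3.67% higher and 5.75% lower. POLA2 was lower in C1 by log2 -0.33 ± 0.08 and TYMS by -0.17 ± 0.05. The POLA2 call was lost without DKO-C1 replicate 1 (adjusted p = 0.0989) or DKO-C2 replicate c (0.06668), and the TYMS call without DKO-C1 replicate 2 (0.07229). GINS2 was at 79.9, 77.3 and 80.3 CPM in DKO-C1 and at 50.9, 58.4 and 47.6 in DKO-C2, against 80.54, 77.05 and 81.72 in control. The difference of 0.60 ± 0.06 (adjusted p = 1.249e-09) was that of DKO-C2, where GINS2 fell by 0.61 ± 0.06; with spike-in scaling the difference was 0.37 (adjusted p = 0.1294). Its neighbors on chromosome 16, GSE1 (-0.67 ± 0.05) and EMC8 (-0.62 ± 0.06), also fell in DKO-C2 and changed by 0.02 and -0.09 in DKO-C1. Of the 10 tested genes nearest to GINS2, 6 had a negative log2 fold change in DKO-C2, with a median of -0.40. CRISPLD2 rose there by 1.59 ± 0.08, and the adjacent C16orf74 was not called (0.20 ± 0.12). GSE1 and EMC8 were singled out after their values were seen, and their part was not tested.

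The wider pathway was read from a list of 30 other replication genes. It counted 3 higher and 7 lower in CDK8KO, where 40.5% of all tested genes were called, 3 and 11 in CDK19KO (43%) and 7 and 9 in DKO (61.6%). With JQ1 it counted 9 and 14 in control (56%) and 8 and 14 in DKO-C1 (50.3%). Among the genes called, the largest changes in CDK8KO were the rises of TICRR, which helps load CDC45 (0.36 ± 0.05), and the histone chaperone ASF1B (0.28 ± 0.04), and the falls of ORC2 (-0.23 ± 0.05) and the dUTPase DUT (-0.19 ± 0.05). In CDK19KO ASF1B (0.18 ± 0.04) and the nuclease-helicase DNA2 (0.15 ± 0.06) rose, and CLSPN, a replication checkpoint mediator, fell by 0.35 ± 0.06. RNASEH2A, the catalytic subunit of ribonuclease H2, which removes ribonucleotides from DNA, had 1285 to 1306 counts in control and 38 to 45 in DKO without JQ1. It fell in DKO by 5.02 ± 0.06 (adjusted p = 5.883e-39), while the median of its 10 tested neighbors was -0.09 in DKO-C1 and -0.03 in DKO-C2. DUT fell there by 0.49 ± 0.05, and CLSPN (0.34 ± 0.06) and UHRF1 (0.27 ± 0.04) rose. With JQ1 the largest falls called in both genotypes were those of TIPIN, of the fork protection complex, and the kinase CDC7. TIPIN changed by -0.72 ± 0.07 in control and -0.59 ± 0.08 in DKO-C1, and CDC7 by -0.48 ± 0.07 and -0.52 ± 0.08. The largest rises were POLE4 (0.65 ± 0.12) and CHTF18 (0.52 ± 0.07) in control, and ORC4 (0.63 ± 0.07) and CHTF18 (0.57 ± 0.08) in DKO-C1.

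A list of 25 S-phase regulators, covering E2F factors, RB proteins, cyclins, their kinases and inhibitors, counted 11 higher and 5 lower in CDK8KO, where 40.5% of all tested genes were called, 8 and 5 in CDK19KO (43%) and 12 and 6 in DKO (61.6%). With JQ1 it counted 6 and 12 in control (56%) and 4 and 12 in DKO-C1 (50.3%). In CDK8KO the CDK inhibitor gene CDKN1B (0.66 ± 0.05) and E2F1 (0.39 ± 0.05) rose and RBL2 (-0.34 ± 0.06) and E2F5 (-0.31 ± 0.07) fell. In CDK19KO CDKN1A, the p21 gene, rose by 1.38 ± 0.05 and E2F1 by 0.43 ± 0.05, while RBL2 fell by 0.56 ± 0.06 and E2F5 by 0.35 ± 0.07. In DKO the largest rises were those of CDK6 (1.62 ± 0.06) and CCND1 (0.84 ± 0.05), kinase and cyclin of G1, and the largest falls those of E2F5 (-0.68 ± 0.07) and TFDP2 (-0.47 ± 0.06). With JQ1, E2F2 and E2F8 fell most in both genotypes, by 1.26 ± 0.07 and 1.01 ± 0.06 in control and by 1.08 ± 0.09 and 1.28 ± 0.06 in DKO-C1. CDKN1A rose by 0.73 ± 0.06 and 1.37 ± 0.06, CCND3 by 0.72 ± 0.08 in control, and RB1 by 0.38 ± 0.07 in DKO-C1.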

How the data were processed

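RNA sequencing covered 26 libraries in 9 groups. Per the submitters' processing notes, reads were aligned to hg38 with STAR 2.5.2 and the gene table was made with featureCounts (Subread 1.6.3); annotation release and strand setting are not given here. The authors deposited raw counts, with 92 ERCC transcripts, which stayed out of library sizes. Of the columns, 22 were matched to 1 sample by name and 4 to a group only. These are 3 taken as DKO-C2 (replicates a, b and c) and 1 of DKO-C1 with JQ1 (replicate a).

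Counts were tested with edgeR 4.0.16 (R 4.3.3, quasi-likelihood, two-sided) in 1 fit of all libraries, with TMM factors and filterByExpr (minimum count 10, minimum total 15), over 17198 genes, at a Benjamini-Hochberg adjusted p under 0.05. CPM use TMM effective sizes (factors 0.956 to 1.02). Knockout contrasts are means of both sublines. The 25 library pairs within groups had chi-square values per degree of freedom of 1.38 to 11.9, so none was as close as counting alone. The fit was tested on simulated data.

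The 43 genes, the other lists and the comparisons were chosen with earlier results of these data known. Genes named are the 4 largest rises and falls per comparison among those called, for knockouts against control also in both sublines alone, and 3 for DKO beyond the sum, the JQ1 difference and sublines. MCM2, CDC6, CDT1, GMNN, PCNA, RRM2 and CDC25A are given in every group, and the 2 largest changes per direction of each other list, of which 1 is not reported here. Other named genes were chosen after their values were seen. Alternatives were DESeq2 1.42.0 size factors and Wald test, ERCC factors, no low-count filter, a minimum mean of 5 CPM, a replicate block, only the libraries compared, single sublines and each library left out. Promoters are from RefSeq (GRCh38.p14), gene places and overlaps from GENCODE v29. Of the 43 genes, 10 share at least 10% of exonic bases or of 50-base words with other genes: MCM2, GINS3, GINS4, RFC5, TYMS, POLA2, PRIM1, PRIM2, RRM2 and POLD1; their counts are less certain.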

Additional observations from a re-analysis of the deposited data

Results flagged for a closer look

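The JQ1 response of MCM3 differed between DKO-C1 and control by log2 0.21. With the settings of the report it was the only such difference called among the 43 genes, while a minimum of 5 CPM and the Wald test of DESeq2 each called 2 and the fit without a low-count filter 0.

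Sublines with the same label differed by the test of the difference for the following named genes. Between CDK8KO-C1 and C2, RPA3 differed by -0.36, PRIM1 by -0.22 and ORC6 by -0.18. Between CDK19KO-C1 and C2, POLE differed by 0.61, RPA3 by 0.31, PCNA by 0.26, POLA1 by -0.30, RRM2 by -0.21 and TYMS by -0.18. Between DKO-C1 and C2, GINS2 differed by 0.60, POLA2 by -0.33 and TYMS by -0.17.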

How the results depend on the processing

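With ERCC factors, 43 genes were called in each of CDK8KO, CDK19KO and DKO against control, 16 with JQ1 in DKO-C1, 0 for the JQ1 difference, 0 between CDK8KO sublines, 9 between CDK19KO sublines and 1 between DKO sublines. Directions turned for TK1 (-0.85), POLD1 (-0.87), GINS1 (-0.88) and CHAF1B (-0.90) in CDK8KO; for CHAF1B (-1.28), MCM7 (-1.33), LIG1 (-1.35) and RRM2 (-1.38) in CDK19KO; for GINS1 (-0.37), CHAF1B (-0.69), TK1 (-0.72) and CDC6 (-0.74) in DKO. They also turned for RRM2 (0.11), PCNA (0.24), CDC25A (0.24) and RFC5 (0.32) between CDK8KO and CDK19KO, for MCM2 (0.80) and MCM7 (1.23) beyond the sum, and for RPA3 with JQ1 in control (-0.093) and in DKO-C1 (-0.029). These follow from the shifts over all genes given with the report.

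With 1 subline per genotype, PCNA (0.0011) and RFC5 (0.026) between CDK8KO-C2 and CDK19KO-C2 turned, as did POLE beyond the sum in C1 (-0.058); the cause was not tested. The JQ1 difference counted 0 genes without a low-count filter, 2 with a minimum of 5 CPM and 2 with the DESeq2 Wald test. The CDK8KO subline difference counted 4 without a filter and 15 with only the libraries compared, and the DKO subline difference 1 with only those.

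With each library left out in turn, counts ran from 20 to 25 in CDK8KO, 24 to 26 in CDK19KO, 22 to 28 in DKO, 23 to 27 between single knockouts, 31 to 33 beyond the sum, 32 to 35 with JQ1 in control and 23 to 26 in DKO-C1. They ran from 0 to 2 for the JQ1 difference, 3 to 6 between CDK8KO, 19 to 23 between CDK19KO and 2 to 4 between DKO sublines. Where 1 library remained in a group it was assumed to vary like the others.

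Same-numbered libraries did not deviate together (63 correlations, -0.17 to 0.17, 3 above 0.1), so numbers were not taken as pairs. With a replicate block on the 22 numbered libraries, 27, 25 and 24 genes were called in CDK8KO, CDK19KO and DKO (C1 only). The counts were 28 between single knockouts, 32 beyond the sum (DKO-C1 only) and 34 with JQ1 in control. Between CDK8KO sublines 11 were called and between CDK19KO sublines 25. This fit left 1 library in DKO-C1 with JQ1, so no counts are given for its JQ1 response or for the JQ1 difference. RPA3 with JQ1 in DKO-C1 changed by 0.24 in this fit and was not called. Without JQ1 replicate a and with no block it also changed by 0.24 and was not called. The lost call can therefore not be put down to the block. No paired analysis was possible because the clone number of the DKO-C2 columns matches no title, so that their replicate numbers could not be tied to labelled samples, for DKO-C1 against DKO-C2.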
